A study of Mus musculus and Rattus norvegicus with 28 samples.

Results

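The genes described here are 9 markers of the mural cells of blood vessels, chosen by name out of 55450 mouse and 32623 rat genes. No cutoff on a measured value was used, but earlier results of these data were known. The pericyte genes are Rgs5, Pdgfrb, Cspg4, Kcnj8 and Notch3, and the smooth muscle genes are Myh11, Tagln, Cnn1 and Mylk. Their RNA was followed in ventricular cardiomyocytes of C57BL/6 mice at embryonic day 18.5 (E18.5) and postnatal days 1, 3 and 7 (P1, P3 and P7), with 2 RNA-seq and 2 ATAC-seq libraries per time point. The labels give no treatment for the mice, and the cells were released from the left ventricle with trypsin and collagenase and then preplated so that faster-attaching non-cardiomyocytes stayed behind. Rat cells were neonatal ventricular cardiomyocytes (NRVCs) of P1 Sprague Dawley pups, given 100 nM trichostatin A (TSA), an inhibitor of histone deacetylases, on the day after plating, or DMSO as the control, with 3 RNA-seq libraries per group. The study's methods call the libraries of a group biological replicates, without naming litters or cultures, and p-values measure only the spread between these samples. Each group is a bulk cell preparation, in which fewer cells of a type and less RNA per cell cannot be told apart.

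Pericytes sit on capillaries inside the basement membrane that they share with the endothelium, and smooth muscle cells wrap the larger vessels. Endothelial PDGF-B, sensed by the receptor PDGFRB, recruits both, and NOTCH3 on mural cells responds to Jagged ligands on neighbouring cells. Vascular smooth muscle contracts when myosin light chain kinase, the product of Mylk, phosphorylates the regulatory light chain of a smooth muscle myosin whose heavy chain Myh11 encodes. Several contractile genes of this set, Tagln and Cnn1 among them, are also expressed for a time in the embryonic heart muscle, and Tagln is expressed in activated fibroblasts. A marker of this set in a bulk library is therefore not by itself a count of mural cells.

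All 9 genes were found in both organisms, and all 9 passed the filter of at least 1 FPKM (fragments per kilobase of transcript and 1e+06 mapped fragments) in at least 2 libraries of mouse or 3 of rat. Myh11 passed in mouse only through its P3 and P7 libraries, and Kcnj8 passed in rat only through the TSA libraries. Library depth was 29.3 to 37.5 M aligned reads (M, 1e+06) in mouse and 28.2 to 38.5 M in rat. None of 12 cardiomyocyte markers was at 0 in any mouse group. The same held for the lists of fibroblast, endothelial and macrophage markers, so this does not check the labelled cell type. The paper describes high purity at P7 from staining for cardiac troponin T. The summed FPKM of the cardiomyocyte markers went from 27297 to 35524 at E18.5 down to 1070.0 to 2365 at P7. At P7 the sum over 10 fibroblast markers, 2973 to 3710, was the higher one. In a limma fit on log2(FPKM + 1) over all 13979 mouse genes tested, a gene was called when its Benjamini-Hochberg adjusted p was under 0.05 and its log2 fold change above 1 in size.

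Rgs5 encodes a regulator of G protein signalling that is among the most used pericyte markers, and it lies on mouse chromosome 1, from 169655501 to 169695813 (mm10). Its FPKM was 9.21 and 7.38 at E18.5, then 0.877 and 0.553 on P1, 1.93 and 2.45 on P3 and 4.23 and 6.16 on P7. The E18.5 libraries were the highest, both P1 libraries were the lowest, and no 2 time points overlapped. Rgs5 fell by 2.44 on the log2 scale (SE 0.22, adjusted p = 0.00018) at P1 against E18.5 and then rose by 1.84 (SE 0.22, adjusted p = 0.0013) at P7 against P1. At P7 the fitted difference from E18.5 was -0.60 (SE 0.22), with an adjusted p of 0.045 but a size under the limit of 1. The P1 values rest on 84.9 to 125 estimated reads, against 1031 to 1089 at E18.5. At FPKM as low as these the log2(FPKM + 1) scale understates a fold change. Over the alternative settings the P1 difference from E18.5 ranged from -3.58 to -2.29.

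Pdgfrb, the receptor for PDGF-B, was higher at each time point than at the one before, and so rose also between E18.5 and P1, where Rgs5 fell. Its FPKM was 4.92 and 3.15 at E18.5, then 19.8 and 12.6 on P1, 36.9 and 48.1 on P3 and 65.3 and 81.9 on P7. The libraries of successive time points did not overlap. The log2 fold change against E18.5 was 1.77 (SE 0.26, adjusted p = 0.0014) at P1, 3.12 (SE 0.26, adjusted p = 8.6e-05) at P3 and 3.90 (SE 0.26, adjusted p = 2.1e-05) at P7. Pdgfrb also rose by 2.14 (SE 0.26, adjusted p = 0.0015) between P1 and P7. The gene runs from 61045150 to 61085061 on chromosome 18. Its FPKM was assigned to the transcript ENSMUST00000025522.10 at 86.2% or more in 7 libraries, whereas P7 replicate 2 had 72.0% on the second transcript, ENSMUST00000115274.1, so that only the sum over transcripts was compared.

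Notch3, the mural cell Notch receptor, is on chromosome 17 from 32120820 to 32166852 on the minus strand. Its FPKM was 1.95 and 2.13 at E18.5, then 1.25 and 1.36 on P1, 2.83 and 5.58 on P3 and 9.56 and 11.6 on P7. The P7 libraries stood above all others, and the P1 libraries below all others. Notch3 rose at P7 against E18.5 by 1.93 (SE 0.25, adjusted p = 0.00039) and against P1 by 2.32 (SE 0.25, adjusted p = 0.0011). The difference at P3, 0.72 (SE 0.25, adjusted p = 0.043), was under the size limit, and 1 of the 2 P3 libraries was much higher than the other. Without P3 replicate 1 it was 1.12 and called.

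Cspg4 encodes the NG2 proteoglycan, a surface marker of pericytes and of other immature cells, and lies on chromosome 9 from 56865033 to 56899870. Its FPKM was 15.1 and 7.79 at E18.5, then 13.5 and 13.8 on P1, 9.32 and 11.8 on P3 and 4.36 and 3.30 on P7. The E18.5 libraries were spread so far apart that P1 and P3 fell within their range, and only P7 lay below every other library. Cspg4 fell by 1.31 (SE 0.28, adjusted p = 0.0045) at P7 against E18.5 and by 1.61 (SE 0.28, adjusted p = 0.0059) against P1. The first of these was no longer called without E18.5 replicate 1, where it was -0.87.

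Kcnj8 encodes the pore subunit Kir6.1 of an ATP-sensitive potassium channel, and sits on chromosome 6 from 142564837 to 142571614 on the minus strand. Its FPKM was 2.62 and 2.21 at E18.5, then 1.75 and 2.27 on P1, 3.76 and 5.20 on P3 and 3.21 and 2.26 on P7. The P3 libraries were the highest, and the ranges of the other time points overlapped each other. No comparison called Kcnj8, with log2 differences from -0.18 (SE 0.21) at P1 to 0.67 (SE 0.21, adjusted p = 0.029) at P3 against E18.5. Abcc9, which encodes the regulatory subunit of this channel and is also expressed in cardiomyocytes, was at 13.0 to 14.9 FPKM at E18.5 and 1.63 to 2.19 at P7. Abcc9 fell by 2.37 (SE 0.29, adjusted p = 0.000297) over that interval.

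Among the pericyte genes, 1 was called higher (Pdgfrb) and 1 lower (Rgs5) at P1 and again at P3, and 2 higher (Pdgfrb, Notch3) and 1 lower (Cspg4) at P7, all against E18.5. Of all genes tested, 10.1% were called higher at P1, 13.0% at P3 and 15.4% at P7, while 6.06%, 8.88% and 12.3% were called lower on these days. Between P1 and P7, 3 of the 5 rose (Rgs5, Pdgfrb, Notch3) and Cspg4 fell, where 3.45% of all genes were called higher and 5.46% lower. Against E18.5 the 5 had a median log2 difference of -0.18 for P1, 0.67 for P3 and 0.12 for P7, beside 0.15, 0.16 and 0.14 over all genes. Scaling by median-of-ratios size factors lowered that median over all genes to 0.04 at P1 and 0.04 at P3, and turned the split of calls at P1 from 1411 higher and 847 lower to 1115 and 1085. It changed no call among the 9 genes. With TPM, which scales every library to the same total over transcripts, in place of FPKM the median over all genes was 0.38, 0.41 and 0.40 at P1, P3 and P7, and the split of calls went from 1814 higher and 1241 lower to 3068 and 1056 at P3, from 2155 and 1715 to 3361 and 1576 at P7, and to 2568 and 752 at P1. Among the 9 genes TPM changed 1 call, that of Notch3 at P3.

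Tagln encodes transgelin (SM22), an actin-binding protein of smooth muscle, on chromosome 9 from 45929619 to 45936058 on the minus strand. Its FPKM was 15.5 and 18.9 at E18.5, then 355 and 243 on P1, 320 and 355 on P3 and 411 and 436 on P7. E18.5 stood far below every later library, P1 and P3 overlapped, and P7 lay above both. The log2 fold change against E18.5 was 4.02 (SE 0.19, adjusted p = 1.9e-05) at P1, 4.22 (SE 0.19, adjusted p = 9.7e-06) at P3 and 4.55 (SE 0.19, adjusted p = 3.7e-06) at P7, the largest among the 9 genes each time. The further difference of 0.53 between P1 and P7 (SE 0.19, adjusted p = 0.094) was not called. Exons of the unnamed gene Gm48529 on the other strand cover 62.4% of the exon bases of Tagln, and the library kit did not mark strand, so reads in the overlap cannot be assigned to one strand. Gm48529 was listed at 2.30 to 2.57 FPKM at E18.5 and 31.0 to 34.5 at P7.

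Mylk, from 34745210 to 35002420 on chromosome 16, encodes myosin light chain kinase. Its FPKM was 1.12 and 0.966 at E18.5, then 3.71 and 4.93 on P1, 5.45 and 7.41 on P3 and 6.25 and 7.36 on P7. Every postnatal library was above E18.5, and P3 and P7 covered the same range. Mylk rose against E18.5 by 1.37 (SE 0.20, adjusted p = 0.0013) at P1, 1.85 (SE 0.20, adjusted p = 0.00025) at P3 and 1.93 (SE 0.20, adjusted p = 0.00012) at P7. The full-length transcript ENSMUST00000023538.8 carried 72.2% to 93.2% of its FPKM, and ENSMUST00000231589.1, which starts in the last part of the gene, 3.89% to 23.7%.

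Myh11 encodes the smooth muscle myosin heavy chain, the marker of this set most restricted to mature smooth muscle, on chromosome 16 from 14194535 to 14291372 on the minus strand. It was the lowest of the 9 genes in mean FPKM up to P3, with 0.573 and 0.602 at E18.5, then 0.590 and 0.176 on P1, 1.12 and 1.79 on P3 and 3.21 and 4.39 on P7. P7 lay above P3, and P3 above the earlier libraries, which overlapped. Myh11 rose by 1.59 (SE 0.23, adjusted p = 0.00059) at P7 against E18.5 and by 1.80 (SE 0.23, adjusted p = 0.0016) against P1, and it was at 0.61 (SE 0.23, adjusted p = 0.052) at P3 against E18.5. The gene had passed the filter only through its P3 and P7 values, and in a fit without the filter the adjusted p was 0.0060 and 0.021 for these differences. Fold changes on log2(FPKM + 1) understate those of genes as low as this one. The same holds for Rgs5 at P1, Mylk at E18.5 and Kcnj8 in NRVCs. The share of the transcript ENSMUST00000090287.4 in its FPKM ranged from 19.5% to 100% between libraries, the rest going mostly to ENSMUST00000230397.1.

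Cnn1 encodes calponin, which binds actin and calmodulin in smooth muscle, and spans 22099216 to 22109630 on chromosome 9. It was called lower at P7 against E18.5, where Tagln, Mylk and Myh11 were called higher. Its FPKM was 16.4 and 22.4 at E18.5, then 4.94 and 7.16 on P1, 4.42 and 5.34 on P3 and 6.70 and 6.48 on P7. Both E18.5 libraries were above every later one, and the postnatal ranges lay close together. Cnn1 fell by 1.53 (SE 0.21, adjusted p = 0.0011) at P1, by 1.78 (SE 0.21, adjusted p = 0.00038) at P3 and by 1.41 (SE 0.21, adjusted p = 0.000802) at P7, all against E18.5. At E18.5 Cnn1 and Tagln overlapped in FPKM, and at P7 Tagln was at a mean of 423 ± 17.1 (SD, n = 2) and Cnn1 at 6.59 ± 0.159 (SD, n = 2).

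Among the smooth muscle genes, P1 and P3 each had 2 called higher (Tagln, Mylk) and 1 lower (Cnn1) against E18.5, and P7 had 3 higher (Tagln, Mylk, Myh11) and 1 lower (Cnn1). The shares over all genes were 10.1% higher and 6.06% lower for P1, 13.0% and 8.88% for P3, and 15.4% and 12.3% for P7. Between P1 and P7, Myh11 alone of these was called, higher, beside 3.45% of all genes. The order of mean FPKM, a level per transcript length, at E18.5 was Cnn1, Tagln, Cspg4, Rgs5, Pdgfrb, Kcnj8, Notch3, Mylk and Myh11, where Cnn1 and Tagln overlapped and so did Cspg4 and Rgs5. At P7 it was Tagln, Pdgfrb, Notch3, Mylk, Cnn1, Rgs5, Cspg4, Myh11 and Kcnj8, where Mylk overlapped Cnn1, and Rgs5, Cspg4 and Myh11 overlapped each other.

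**Figure D1:**
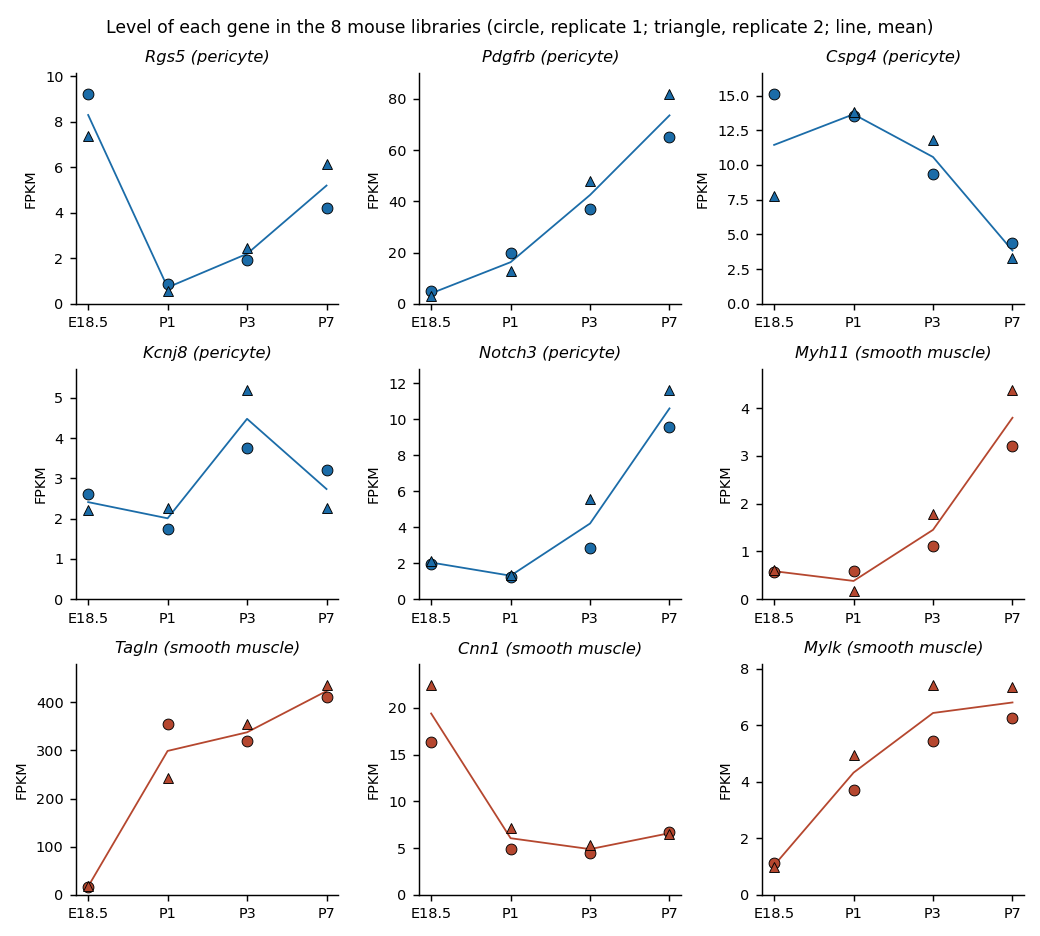
FPKM (y axis, linear, from 0) of each of the 9 genes at E18.5, P1, P3 and P7 (x axis), with pericyte genes in blue and smooth muscle genes in red. Circles and triangles are replicates 1 and 2 and the line joins the means. Rgs5 drops to 0.877 and 0.553 at P1 and climbs again, Pdgfrb climbs at every step, Tagln reaches 243 or more by P1, and Cnn1 is highest at E18.5.

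**Figure D2:**
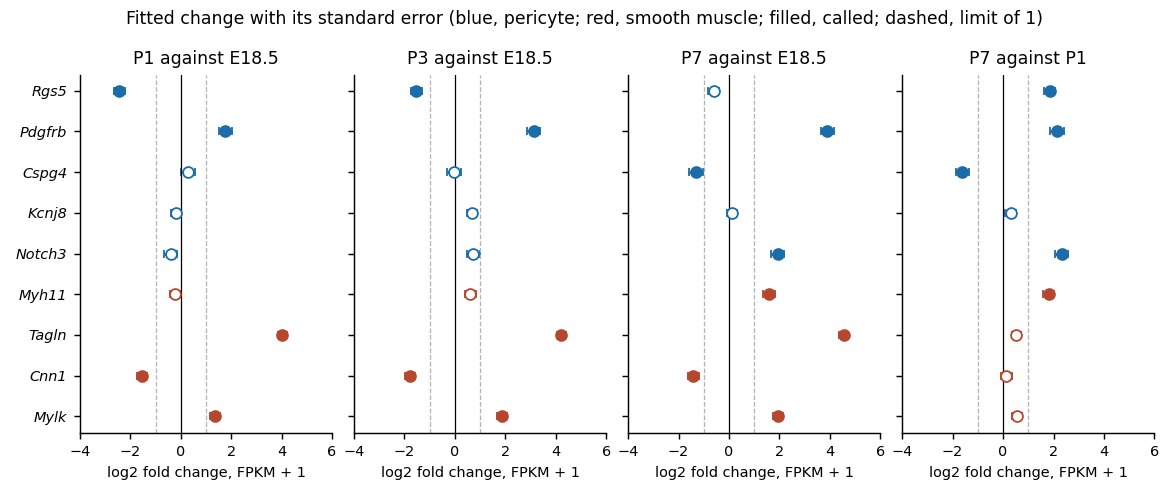
Log2 fold change of FPKM + 1 (x axis) of each gene (y axis) in the 4 mouse comparisons, with the standard error as a bar. Filled points were called, open points were not, and the dashed lines mark the size limit of 1. Tagln and Pdgfrb lie farthest to the right at P7 against E18.5, at 4.55 and 3.90, while Cspg4 and Cnn1 lie to the left.

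Cell type markers moved over the same days. Against E18.5, 10.1% of all genes tested were called higher and 6.06% lower at P1, and 15.4% and 12.3% at P7. Of 10 fibroblast markers, 6 were called higher and 1 lower at P1, and 9 were higher and none lower at P7, with a median log2 difference of 2.77 at P7. Their summed FPKM was 470.2 to 479 at E18.5, 1169 to 1398 at P1, 1575 to 1585 at P3 and 2973 to 3710 at P7, and none was at 0 in any group. All 12 cardiomyocyte markers were called lower at P7 against E18.5, with a median of -4.02. The 10 endothelial markers summed to 399 to 661 at E18.5, 316 to 326 at P1 and 431 to 463 at P7, with 1 called higher and 2 lower at P7, and the 10 macrophage markers to 59.9 to 66.7 at E18.5 and 121 to 143 at P7. Of the macrophage markers, 1 was called higher at P7 (Lyz2, from a mean of 9.86 to 85.3 FPKM) and 1 lower (C1qb, by 1.53 on the log2 scale), and the median of the list was -0.33. The part of these shifts in the course of the 9 genes was not tested.

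**Figure D3:**
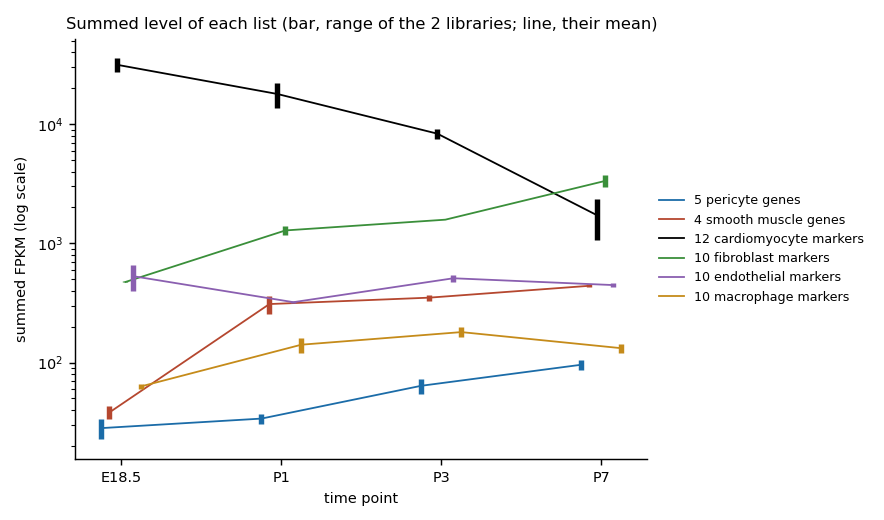
Summed FPKM (y axis, log scale) of the 5 pericyte genes, the 4 smooth muscle genes and the lists of cardiomyocyte, fibroblast, endothelial and macrophage markers by time point (x axis). Bars give the range of the 2 libraries and lines their mean. The cardiomyocyte sum falls to 1070.0 to 2365 at P7, while the fibroblast sum reaches 2973 to 3710, the smooth muscle sum 427 to 454, of which Tagln is 411 and 436, and the pericyte sum 86.7 to 105, of which Pdgfrb is 65.3 and 81.9.

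The other genes of each pathway were read from lists of known members. Of 12 further pericyte markers, 11 were tested, and 4 were called higher and 1 lower at P7 against E18.5, with a median log2 difference of 0.72. Over all genes tested the shares were 15.4% higher and 12.3% lower in that comparison. They were 10.1% and 6.06% at P1 against E18.5, and 3.45% and 5.46% at P7 against P1. Steap4 rose by 2.69 (SE 0.27), S1pr3, a sphingosine phosphate receptor, by 2.11 (SE 0.34) and Anpep, the aminopeptidase CD13, by 1.72 (SE 0.24). Abcc9 was the one that fell. At P1 the list had 2 higher, Steap4 by 1.84 (SE 0.27) and the transcription factor gene Foxf2 by 1.07 (SE 0.29), and 1 lower, Aoc3, an amine oxidase, by 1.81 (SE 0.27), and its median was -0.37. Foxf2 was low, at 0.080 to 0.124 FPKM at E18.5 and 0.695 to 2.14 at P1. It had passed the filter only through 1 library of P1 and 1 of P3. Aoc3 rose by 1.80 (SE 0.27) between P1 and P7. Between P1 and P7, 5 of the 11 were called higher, Ndufa4l2 by the most at 3.34 (SE 0.78), and Abcc9 was called lower. The Ndufa4l2 libraries of P1 were far apart, at 0.326 and 9.26 FPKM, and those of P7 were at 29.2 and 45.4.

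Of 16 further smooth muscle contractile genes, 15 were tested. At P7 against E18.5, 7 were called higher and 5 lower, beside 15.4% and 12.3% of all genes tested. The largest rises were Ppp1r14a, an inhibitor of myosin phosphatase, at 3.61 (SE 0.23) and Actg2, the enteric smooth muscle actin, at 3.27 (SE 0.26). Acta2, the vascular smooth muscle actin, was picked after its values were seen and rose by 1.59 (SE 0.17), from 352 to 480 FPKM at E18.5 to 1161 to 1326 at P7. The steepest falls were Pcp4l1 at -3.82 (SE 0.37) and Des, which encodes desmin and is abundant in cardiomyocytes too, at -3.60 (SE 0.28). The other 3 that fell, Tpm1, Myl9 and Ppp1r12a, likewise named after their values were seen, lay between -2.14 and -1.55.

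Among the PDGF genes, Pdgfra, the receptor that marks fibroblasts, rose by 3.75 (SE 0.13) at P1 and 4.32 (SE 0.13) at P7 against E18.5. Pdgfb, the ligand of PDGFRB, was at 18.9 to 33.4 FPKM at E18.5 and 15.8 to 16.8 at P7, with a log2 difference of -0.60 (SE 0.23, adjusted p = 0.059). Pdgfc rose by 2.14 (SE 0.28) at P1. Of the 12 Notch genes, 2 were higher and 4 lower at P7, beside 15.4% and 12.3% of all genes tested. Jag1, a Notch ligand of smooth muscle and endothelium, rose by 1.02 (SE 0.17), and Rbpj, the DNA-binding partner of activated Notch, by 1.66 (SE 0.21). The Notch target Hey2 fell by 3.35 (SE 0.17) and Hey1 by 2.47 (SE 0.24), both of which also act in the heart, and the ligand gene Jag2 by 1.55 (SE 0.35). Between P1 and P7, Dll4, a ligand gene of endothelium, rose by 1.62 (SE 0.41) and Heyl, the Hey gene of mural cells, by 1.14 (SE 0.17). Against E18.5, Dll4 was at -1.75 (SE 0.41) at P1, called lower, and at -0.12 (SE 0.41) at P7, not called.

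Of 7 genes for SRF, the factor behind contractile gene transcription, and its regulators, 1 was higher and 2 lower at P7 against E18.5. Over all genes tested the shares were 15.4% higher and 12.3% lower. Myocd, which encodes the SRF partner myocardin of smooth and heart muscle, fell by 1.95 (SE 0.19), and Klf4, a repressor of contractile genes, by 1.52 (SE 0.28). Mrtfa, a further SRF partner, rose by 1.22 (SE 0.15). Close relatives of the 9 genes gave 4 higher and 3 lower of 11 tested, beside the same shares over all genes. Tagln2, a relative of Tagln in other cells, rose by 2.79 (SE 0.19). Cnn2, the relative of Cnn1, was picked after its values were seen and rose by 2.10 (SE 0.16), while Cnn1 fell. Mylk3, the cardiac myosin light chain kinase, fell by 3.28 (SE 0.41), Rgs2 by 2.90 (SE 0.22) and Kcnj11, the pore subunit of the cardiac form of the channel, by 2.45 (SE 0.27).

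The genes whose course over the 8 mouse libraries was most like that of each gene were taken as those with the smallest root mean square difference of log2(FPKM + 1), each centred on its own mean, among genes with a mean of at least 5 FPKM, as a description. For Pdgfrb they were Dclk1, Fbn1 and Sdc3 (0.20 to 0.27, where the gene itself varied by 1.50). For Notch3 they were Col6a3, Ifi205 and Nupr1 (0.20 to 0.32), and for Myh11 Ripk2, Mfap5 and P4ha3 (0.18 to 0.22). Fbn1, Col6a3 and Mfap5 encode proteins of the extracellular matrix. Tagln was closest to Lcn2, S100a6 and Pdgfra (0.15 to 0.20), and Mylk to Evc2, Vav2 and Cdc42ep1 (0.14 to 0.15). The course of Cnn1 was nearest to Siah2, Ckb and Dusp1 (0.14 to 0.15), and that of Cspg4 to Tbc1d4, Hs6st1 and Btbd2 (0.22 to 0.24). Rgs5 had the less close partners N4bp3, Kit and Cmpk2 (0.26 to 0.30), and Kcnj8, which varied by 0.35 itself, had Cracr2b, Scarf1 and Grasp (0.16 to 0.18).

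ATAC-seq marks open chromatin by the insertion of a transposase, and the MACS2 peak lists were searched for peaks with a midpoint within 2.5 kb of any annotated start of the 9 genes. A listed peak carries a fold enrichment at its summit over the local background. No gene of the set had a peak in both E18.5 libraries, where 56.5% of all genes tested for RNA had one. At P1 it was 1 gene of 9, Mylk, beside 41.1% of all genes. At P3 and again at P7 it was 6 of 9, Pdgfrb, Cspg4, Kcnj8, Myh11, Tagln and Mylk, beside 87.2% and 82.9%. Lists were of very different length, from 13149 peaks in E18.5 replicate 1 to 95257 in P3 replicate 1. With each list held to its top 13149 peaks by score, 1 of 9 remained at P3 (Myh11) and 1 at P7 (Mylk), beside 36.8% and 44.9% of all genes.

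Rgs5 had no peak near its start in any of the 8 lists, whether its FPKM was 9.21 or 0.553. Inside the 40313 bp of the gene, away from the start, P3 replicate 1 listed 4 peaks, P3 replicate 2 listed 1, and the other 6 libraries listed none. Cnn1 had 1 peak, in P3 replicate 1, with a fold enrichment of 2.84, above only 2.91% of the peaks in that list. At E18.5, where its RNA was highest, neither list had a peak for it. Notch3 had 1 peak in P3 replicate 1, centred 1192 bp downstream of its start, and 1 in P7 replicate 1, 23 bp upstream, with fold enrichments of 4.09 and 3.24.

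Tagln had peaks over its start in all 4 libraries of P3 and P7 and in none of E18.5 and P1. The peak nearest the start had a fold enrichment of 4.06 and 7.64 at P3 and 4.35 and 4.58 at P7, and a second one lay about 1 kb upstream in all 4. Its RNA was already at 243 and 355 FPKM at P1, where no peak was listed. Pdgfrb followed the same pattern of libraries, with a peak centred within 13 bp of a start and fold enrichments of 5.94 and 6.67 at P3 and 4.60 and 4.54 at P7. Kcnj8 again had peaks in these 4 libraries only, at 5.93, 6.70, 4.68 and 5.29, although its RNA was not called in any comparison. Myh11 had a peak with a fold enrichment of 10.3 and 9.28 at P3, 7.84 and 4.69 at P7 and 6.76 in P1 replicate 1. Each Myh11 peak was centred 66 to 107 bp upstream of its start.

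Cspg4 had a peak at its main start in P3 replicate 1 and P7 replicate 2 only, with fold enrichments of 3.94 and 2.97. Its count at P3 and P7 rests otherwise on a peak about 1.9 kb inside a short internal transcript, and with a window of 1 kb Cspg4 no longer counted at either time point. Mylk had a peak at its most upstream start in 7 of 8 libraries, all but E18.5 replicate 1. Fold enrichment there was 5.10 in E18.5 replicate 2, 7.36 and 5.40 on P1, 9.07 and 9.82 on P3, and 7.01 and 7.51 on P7. The transcript of that start, ENSMUST00000155268.1, carried under 10% of the FPKM of Mylk in every library. At the start of the full-length transcript one peak was listed, in P3 replicate 1, with a fold enrichment of 3.99. When only starts of transcripts with at least 10% of the FPKM were used, no gene counted at P1, and the P7 count was 4.

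**Figure D4:**
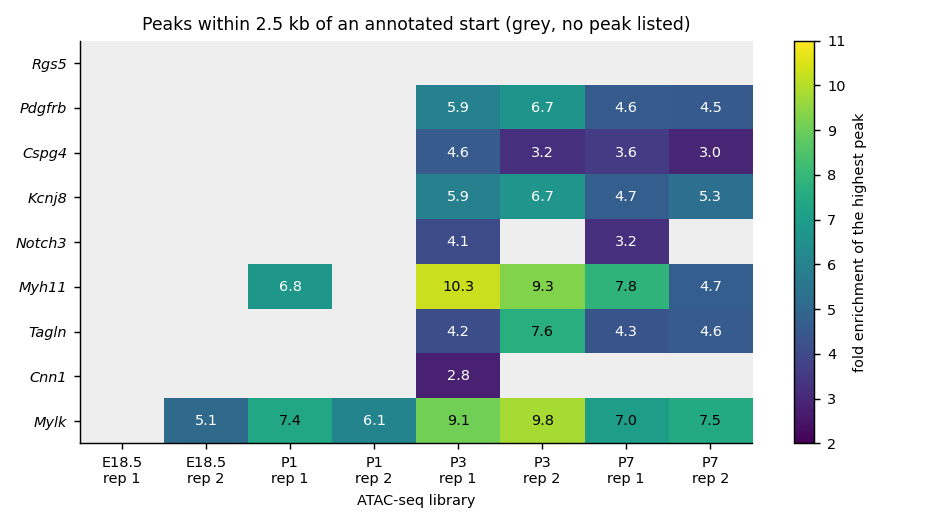
Fold enrichment (colour and printed value) of the highest ATAC-seq peak within 2.5 kb of an annotated start of each gene (y axis) in each of the 8 libraries (x axis), grey where none was listed. The row of Rgs5 is empty, that of Mylk has 7 filled cells, and most others are filled only at P3 and P7.

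Sequences at starts of Rgs5, Cnn1, Kcnj8 and Mylk are printed 5′ to 3′ on the strand of the gene. Those of Rgs5, Cnn1 and Kcnj8 are promoters from RefSeq (GRCm38.p6), from 250 bases before to 50 after the annotated start, where 6 of the 9 genes had an entry, and that of Mylk is the 55 bases shared by its peaks at the upstream start in all 7 libraries. The CArG box, the motif of SRF, and TGGGAA, a core of RBPJ sites, were searched on both strands, and capitals mark a match. CArG boxes were in 1.63% and TGGGAA in 25.6% of 32851 promoters. None of the 6 promoters held a CArG box and 1, that of Kcnj8, held TGGGAA. Pdgfrb, Myh11 and Tagln had no entry and were not searched. The entry of Mylk, chr16:34784700-34784999, lies at the start of the full-length transcript and not at the upstream start. With CArG boxes this rare, their absence from 6 promoters does not set these genes apart. Rgs5 is chr1:169655251-169655550 on the plus strand, without a peak in any library, Cnn1 is chr9:22099003-22099302 on the plus strand, with 136 bases inside the peak of P3 replicate 1, and Kcnj8 is chr6:142571565-142571864 on the minus strand, with 28 to 96 bases inside the peaks of P3 and P7. The stretch of Mylk is chr16:34745196-34745250 on the plus strand, of which 78.2% is G or C.
Rgs5 promoter: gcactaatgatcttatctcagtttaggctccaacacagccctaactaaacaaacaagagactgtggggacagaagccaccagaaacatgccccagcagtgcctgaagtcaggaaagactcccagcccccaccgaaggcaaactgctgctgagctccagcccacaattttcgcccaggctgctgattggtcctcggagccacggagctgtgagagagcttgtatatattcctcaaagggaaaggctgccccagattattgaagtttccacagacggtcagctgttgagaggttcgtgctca
Cnn1 promoter: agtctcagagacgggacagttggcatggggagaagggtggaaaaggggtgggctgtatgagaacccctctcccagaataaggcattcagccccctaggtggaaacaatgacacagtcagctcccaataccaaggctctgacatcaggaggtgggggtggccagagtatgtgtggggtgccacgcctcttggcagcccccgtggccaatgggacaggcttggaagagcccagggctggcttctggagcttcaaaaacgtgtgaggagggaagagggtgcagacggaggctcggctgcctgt
Kcnj8 promoter: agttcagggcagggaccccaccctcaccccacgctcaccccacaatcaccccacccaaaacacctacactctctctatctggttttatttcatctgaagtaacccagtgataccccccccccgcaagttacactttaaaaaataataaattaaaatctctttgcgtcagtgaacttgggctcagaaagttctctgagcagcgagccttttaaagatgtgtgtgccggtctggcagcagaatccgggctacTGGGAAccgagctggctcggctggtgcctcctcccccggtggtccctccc
Mylk stretch: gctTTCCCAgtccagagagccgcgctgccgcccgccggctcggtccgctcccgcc

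In the Kcnj8 promoter the match begins at the annotated start itself. In the Mylk stretch it is on the opposite strand and lies before the start at 34745210. The G and C share of the promoters was 52.3% for Rgs5, 59.3% for Cnn1 and 53.3% for Kcnj8, against 70% for Notch3, whose promoter overlapped 1 peak, in P7 replicate 1.

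In NRVCs the levels were first read for what the cultures held. Pdgfrb was at 100.3 to 114 FPKM with DMSO, Tagln at 309 to 966, Cnn1 at 20.0 to 197, Mylk at 17.9 to 25.0, Notch3 at 16.9 to 22.8 and Cspg4 at 14.4 to 19.1. Myh11 was at 4.84 to 14.2, Rgs5 at 3.47 to 5.33 and Kcnj8 at 0.791 to 0.826. Replicate 3 of both groups stood apart. Cnn1 was at 23.1, 20.0 and 197 in the DMSO replicates and at 24.5, 22.2 and 197 with TSA, and Tagln and Myh11 were also highest in replicate 3 of each group. The summed cardiomyocyte markers were 11928, 12992 and 21823 with DMSO and 13022, 11465 and 32167 with TSA, the third again the highest, while the fibroblast sum was lowest in TSA replicate 3, at 3605. The macrophage sum was 495 to 1041 with DMSO and 426 to 560.0 with TSA, and the endothelial sum 75.9 to 237 and 109 to 169.7. Their part in the results below was not tested.

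With TSA 1 of the 9 genes rose, Rgs5. Its FPKM was 5.33, 3.47 and 4.53 with DMSO and 15.3, 17.5 and 20.9 with TSA. Every TSA library was above every DMSO library, and the ratio within same-numbered pairs was 2.86, 5.05 and 4.61. The log2 fold change was 1.80 (SE 0.18, adjusted p = 0.0069), where 1.81% of the 13625 genes tested were called higher and 0.316% lower. With the replicate number as a block the adjusted p was 0.025, and with replicate 3 left out of both groups, an alternative chosen after seeing the data, it was 0.0061. Without TSA replicate 2 the difference was 1.81 with an adjusted p of 0.059, and no gene of the set was called. The DMSO values rest on 98.6 to 143 estimated reads and the TSA values on 348 to 651.

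Kcnj8 was at 0.791, 0.798 and 0.826 FPKM with DMSO and at 1.39, 1.61 and 2.59 with TSA. The groups did not overlap, but the log2 difference of 0.64 (SE 0.19, adjusted p = 0.125) was not called, and the gene had passed the filter only because of its TSA values. Notch3 was at 18.1, 16.9 and 22.8 with DMSO and 27.1, 30.1 and 20.8 with TSA, higher in 2 pairs and lower in the third. Its difference was 0.41 (SE 0.17, adjusted p = 0.25), and 0.68 with an adjusted p of 0.0081 without replicate 3, still under the size limit. Pdgfrb was at 100.3, 114 and 103 with DMSO and 98.6, 105 and 81.9 with TSA, with a difference of -0.16 (SE 0.12, adjusted p = 0.52). Cspg4, at 15.2, 14.4 and 19.1 against 15.2, 16.4 and 25.2, had one of 0.19 (SE 0.21, adjusted p = 0.68).

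Of the smooth muscle genes, Tagln was at 357, 309 and 966 FPKM with DMSO and 191, 192 and 555 with TSA. It was lower with TSA in all 3 same-numbered pairs, at ratios of 0.535, 0.620 and 0.575, although the groups as wholes overlapped. The log2 difference was -0.79 (SE 0.56, adjusted p = 0.50), and the adjusted p was 0.027 with the replicate block and 0.0052 without replicate 3, each time with a size under the limit, so that no setting called it. Myh11 had a difference of -0.18 (SE 0.46, adjusted p = 0.87), Cnn1 of 0.07 (SE 1.11, adjusted p = 0.98) and Mylk of -0.20 (SE 0.20, adjusted p = 0.64). The standard error of Cnn1 was set by replicate 3, and its pair ratios were 1.06, 1.11 and 0.999.

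Few genes of the further lists were called with TSA, where 1.81% of all genes tested were called higher and 0.316% lower. Of 9 other pericyte markers tested, Cox4i2 rose by 1.17 (SE 0.21, adjusted p = 0.035) and Aoc3 fell by 1.25 (SE 0.18, adjusted p = 0.017). None of the 16 other smooth muscle contractile genes was called, and neither was any of the PDGF, Notch or SRF genes or the close relatives. Abcc9 had a difference of -0.09 (SE 0.17), Pdgfb of -0.54 (SE 0.17, adjusted p = 0.14) and Jag1 of -0.22 (SE 0.19). None of the cardiomyocyte, fibroblast or endothelial markers was called, and 1 of 9 macrophage markers, C1qc, rose by 1.61 (SE 0.25, adjusted p = 0.022). The median of the macrophage list was -0.80, against 0.03 over all genes, and Csf1r, at -1.15 (SE 0.29, adjusted p = 0.081), had the lowest value in it. The part of these shifts in the values of the 9 genes was not tested.

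**Figure D5:**
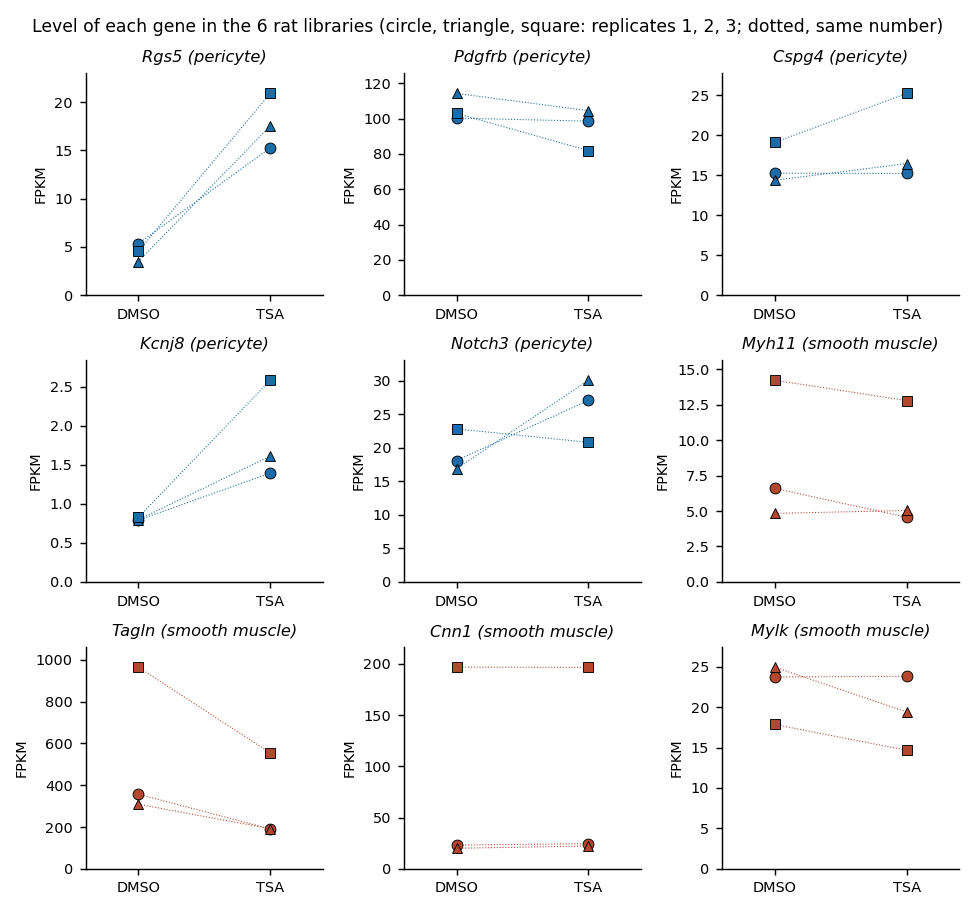
FPKM (y axis, linear, from 0) of each gene in NRVCs with DMSO and TSA (x axis), with pericyte genes in blue and smooth muscle genes in red. Circle, triangle and square are replicates 1, 2 and 3, and dotted lines join the same number. Rgs5 goes from 3.47 to 5.33 up to 15.3 to 20.9, and replicate 3 is far above the others for Tagln, Cnn1 and Myh11 in both groups.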

How the data were processed

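RNA-seq reads went through HISAT2 (mm10 or rn6) and the authors deposited StringTie tables, in whose transcript lines the FPKM, TPM and coverage stand. The library kit did not mark strand. FPKM was summed over the transcript lines of a gene. The ATAC-seq peak lists deposited by the authors were called per library with MACS2 and give a score, the fold enrichment and the −log10 of the p- and q-value of each peak. Groups were taken from the labels. Genes with at least 1 FPKM in 2 mouse or 3 rat libraries were tested with limma 3.58.1 (R 4.3.3, two-sided, trend in the variance) on log2(FPKM + 1), the mouse time points in 1 fit, with Benjamini-Hochberg adjustment over all genes tested. The reads of a transcript were estimated as its coverage times its length over reads of 150 bp. Depth was estimated from the median ratio of coverage to FPKM over transcripts above 1 FPKM, with the same read length. The fit was tested on simulated data. Same-numbered rat libraries deviated together from their group means (r = 0.224, 0.194 and 0.346), while different-numbered ones had r from -0.270 to 0.167. The replicate block is therefore given where it bears on a result. Transcript starts came from the deposited StringTie transcript lines, and exon overlaps between genes from GENCODE vM21. The genes, the lists and the tests were chosen with earlier results of these data known. Besides the 9 genes, the text names up to 4 called genes per list and comparison by size of change, the partners Abcc9, Pdgfb and Jag1, the 3 most alike genes, and Acta2, Tpm1, Myl9, Ppp1r12a and Cnn2, picked after their values were seen. The 6 HiChIP libraries were not used here.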

Additional observations from a re-analysis of the deposited data

How the results depend on the processing

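Of 681 single-gene values under the alternatives, 676 kept the call, and no called value changed direction. Part of these alternatives left the fold change as it was by design and could move only its p-value. Among them were the replicate block and leaving out a library of neither group compared. Values that were not called could change sign, as for Cspg4 at P3 against E18.5, from -0.49 to 0.39. Notch3 at P3 against E18.5 gained its call with TPM (1.04), limma-voom on estimated reads (1.11) and without P3 replicate 1 (1.12), Cspg4 at P7 lost its call without E18.5 replicate 1 (-0.87), and Rgs5 lost its call with TSA without TSA replicate 2 (adjusted p = 0.059, against 0.0061 to 0.059 over the alternatives). A mean of at least 5 FPKM left 4 mouse genes in the tests, of which 3, 3, 4 and 2 were called at P1, P3 and P7 against E18.5 and at P7 against P1. Leaving out 1 library at a time gave 0 to 1 gene called with TSA, 0 to 1 gene with a peak at E18.5 and 1 to 2 at P1. With starts of transcripts with at least 10% of the FPKM, 0 genes counted at P1, and with lists of equal length 1 counted at P3 and 1 at P7. In mouse the deviations of same-numbered libraries from their group means correlated at r from -0.096 to 0.171. Different-numbered ones have the same r with the opposite sign, as each time point has 2 libraries. Whether same-numbered mouse libraries were paired is not settled by these values. With the replicate block the 5, 5, 7 and 5 genes called in the 4 comparisons stayed at those counts. In rat the block left 1 gene called. Over all rat genes tested, 290 were called, 33 to 458 without 1 library (33 without TSA replicate 2), 79 with a mean of at least 5 FPKM and 549 with replicate 3 left out of both groups, which was chosen after seeing the data. Low levels limit Rgs5 and Myh11, which rest on as few as 84.9 and 41.4 estimated reads in a library.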
